A study of Mus musculus with 6 samples.

Results

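The enzymes that build cholesterol, and the transcription factor that controls their genes, were followed in C57/BL mouse back skin after cyclosporin A or ethanol. The genes were Hmgcs1, Idi1, Fdps, Fdft1, Sqle, Lss and Cyp51, which encode enzymes, and Srebf2, which encodes the regulator. Members were all probes whose accession mapped to 1 of these 8 genes, whatever their values. This gave 13 of the 41174 probes on the array, for 7 of the 8 genes. No probe was matched to Idi1, the isomerase that makes dimethylallyl diphosphate, and it was not analysed here. Cyclosporin A is an immunosuppressant that inhibits the phosphatase calcineurin, and patients who take it often grow excess hair.

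Skin treated with cyclosporin A was sampled at day 2, day 4 and day 7 after application, with 2 samples per day, and skin treated with ethanol was sampled on the same days, again with 2 per day. Each of the 6 Agilent arrays compared 1 cyclosporin A sample, labelled with Cy5, with 1 ethanol sample of that day, in Cy3. The dyes were not swapped, so a dye effect of a gene and the treatment cannot be told apart. The replicates are described as biological. The labels give no age or sex, and do not say whether the animals of a group were separate or pooled, so the p-values cover only the spread among these samples. Slide 1 carried the day 2 and day 4 arrays and slide 2 the day 7 arrays, so slide and day 7 cannot be told apart.

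Cholesterol is made from acetyl-CoA through mevalonate, isoprenoid diphosphates, squalene and lanosterol. When membrane sterols run low, the protein encoded by Srebf2 (SREBP-2) is carried from the endoplasmic reticulum to the Golgi and cut there. Its freed part enters the nucleus and binds sterol regulatory elements in the promoters of the pathway's genes, usually beside sites for NF-Y and Sp1. In skin the pathway supplies the sterols of the epidermal permeability barrier and of sebum.

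Promoters from RefSeq (GRCm38.p6), covering the 250 bases before a gene start, were at hand for 5 of the 8 genes: Hmgcs1, Idi1, Lss, Cyp51 and Srebf2. Shown are promoters of an enzyme with a match to a searched form of the sterol regulatory element, of an enzyme without such a match, and of the regulator. They are read 5′ to 3′ on the strand of the gene. Capitals mark matches on either strand to TCACNCCAC (a form of the sterol regulatory element), CCAAT (NF-Y), GGGCGG (Sp1) or TCACCCCA, a shorter form of the sterol element that overlaps the longer one and was added after the sequences had been seen.
Hmgcs1, chr13:119690101-119690350, plus strand: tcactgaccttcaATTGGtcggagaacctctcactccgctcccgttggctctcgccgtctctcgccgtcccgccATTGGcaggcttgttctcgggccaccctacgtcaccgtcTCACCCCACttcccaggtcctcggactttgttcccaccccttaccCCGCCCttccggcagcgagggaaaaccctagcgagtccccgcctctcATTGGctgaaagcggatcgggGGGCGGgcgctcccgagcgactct
Cyp51, chr5:4104698-4104947, minus strand: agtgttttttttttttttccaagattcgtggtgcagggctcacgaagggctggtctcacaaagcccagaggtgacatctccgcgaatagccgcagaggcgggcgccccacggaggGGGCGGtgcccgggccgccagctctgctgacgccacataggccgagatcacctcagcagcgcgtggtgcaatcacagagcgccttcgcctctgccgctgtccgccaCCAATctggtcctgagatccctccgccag
Srebf2, chr15:82147019-82147268, plus strand: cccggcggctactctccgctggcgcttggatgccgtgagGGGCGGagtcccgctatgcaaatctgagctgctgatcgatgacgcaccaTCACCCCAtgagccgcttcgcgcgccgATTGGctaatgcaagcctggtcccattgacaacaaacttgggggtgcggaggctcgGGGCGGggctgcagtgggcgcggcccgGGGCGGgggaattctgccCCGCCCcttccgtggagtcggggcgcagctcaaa
Among 32851 promoter windows of this length, 1.05% held TCACNCCAC, 1.34% held TCACCCCA, 33.8% held CCAAT and 32.7% held GGGCGG. The Hmgcs1 window held 1 match to TCACNCCAC, 137 to 129 bases before the start, with 3 CCAAT boxes and 2 GGGCGG boxes. The Srebf2 window held TCACCCCA 162 to 155 bases before the start, with 1 CCAAT box and 4 GGGCGG boxes. The Cyp51 window held 1 CCAAT box and 1 GGGCGG box, and that of Idi1 2 CCAAT boxes and 1 GGGCGG box. In both windows no match to either searched form of the sterol element was found, which says only that these letters are not in those 250 bases. Other forms of the element were not searched, so these windows may hold one. The Lss window reached past the gene start given in the RefSeq gene list, and its boxes are not counted here.

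All 13 member probes passed the filter on dim spots, and 11 of them had both dyes well above background on every one of the 6 arrays. The other 2, A_52_P136138 of Fdft1 and A_52_P302001 of Srebf2, were not well above background in the ethanol channel on any array. Where a gene had several probes, the one with the brightest mean signal represented it. The log2 ratio, cyclosporin A over ethanol, was tested in limma across 22050 genes. Each SE is that of the limma fit, whose spread is pooled over all 6 arrays and moderated across genes. A member thus has the same SE at each day, and n gives the number of arrays averaged. Calls needed an adjusted p under 0.05 (Benjamini-Hochberg). In bulk skin, fewer cells of a type and less RNA per cell cannot be told apart.

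None of the 7 genes was called at day 2, day 4 or day 7, or on average over the days. At day 2, 0 of 7 members passed, against 0% of the 22049 genes tested. At day 4 the counts were 0 of 7 members and 0.00454% of all genes. At day 7 they were 0 of 7 and 3.03%, and on average 0 of 7 and 12.9%. At an unadjusted p under 0.05, 1 member passed at day 2 (Fdft1), 0 at day 4, 1 at day 7 (Srebf2) and 1 on average (Srebf2). The shares of all genes at that threshold were 9.58%, 14.7%, 22.1% and 32.3%. The lowest adjusted p among the members was 0.495 at day 2, 0.476 at day 4, 0.112 at day 7 and 0.0708 on average. The 95% confidence intervals of the 7 representing probes lay within a 2-fold change in either direction at each day and on average. Their limits lay between -0.98 and 0.81 on the log2 scale. Other probes of these genes went beyond 2-fold, such as -2.12 to 0.28 at day 2 for A_52_P388072 of Hmgcs1. The interval of A_52_P164161 of Cyp51 was 0.055 to 1.14 at day 7 (adjusted p 0.201 in limma).

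The median log2 ratio over the 7 genes was -0.28 at day 2, -0.00155 at day 4, -0.0778 at day 7 and -0.0565 on average. The medians over all genes tested were 0.0365, 0.0394, 0.0285 and 0.0335. These values rest on the loess normalization within each array. With each array centred on its median and no loess, the median ratio of all genes tested was 0.40 at day 2, 0.28 at day 4, 0.17 at day 7 and 0.29 on average. The member medians were then 0.48, 0.59, 0.51 and 0.51, and 1, 1, 0 and 6 of the 7 genes were called, all of them higher. Over all genes, 8615 of 22049, 5516 of 22050, 4907 of 22049 and 13309 of 22048 were called under this setting. Of those, 7945, 5215, 4346 and 11004 were higher. The direction of the members as a group thus differed between these normalizations.

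**Figure D1:**
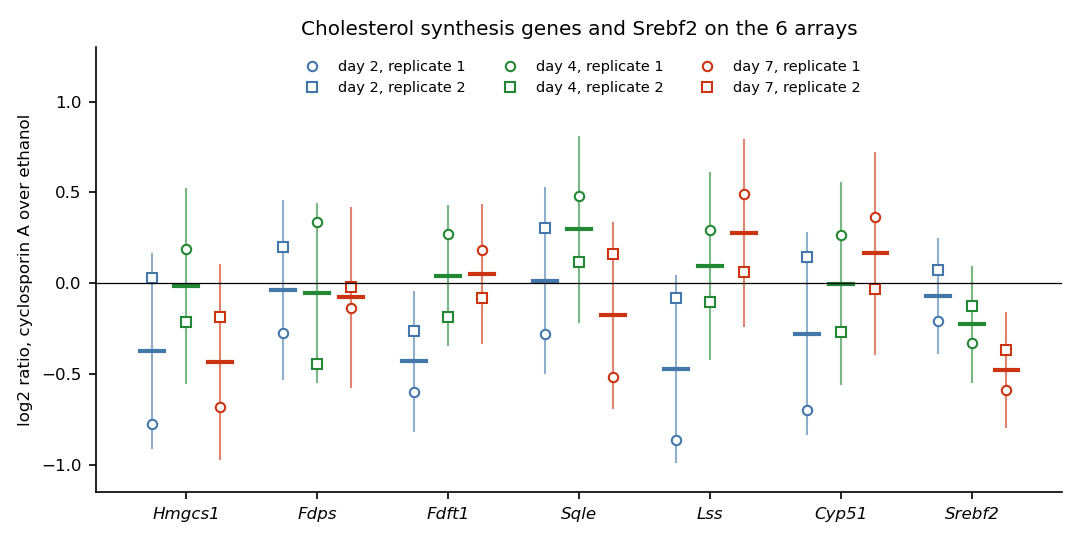
Log2 ratio of cyclosporin A over ethanol (y axis) of the 6 measured enzyme genes, in pathway order, and of Srebf2 (x axis) on each array. Circles are replicate 1 and squares replicate 2, horizontal bars are the mean of the 2 arrays of a day, and vertical lines are the 95% confidence intervals of the limma fit. At day 2 the circle lies below the square for all 7 genes.

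Hmgcs1 encodes the cytosolic synthase that makes HMG-CoA, an early intermediate of the pathway. Its log2 intensities were 13.42 and 14.01 in the cyclosporin A samples of day 2, against 14.19 and 13.98 in the ethanol samples. At day 4 they were 13.91 and 13.77 with cyclosporin A, against 13.72 and 13.99 with ethanol, and the groups overlapped on both days. At day 7 they were 13.03 and 13.36 with cyclosporin A, against 13.71 and 13.55 with ethanol. There both cyclosporin A samples lay below both ethanol samples, and the mean log2 ratio was -0.43 ± 0.22 (SE, n = 2 arrays), with an adjusted p of 0.303 in limma. The ratio was -0.37 ± 0.22 at day 2 and -0.013 ± 0.22 at day 4. On average over the 6 arrays it was -0.27 ± 0.13, with a 95% interval of -0.58 to 0.0349 and an adjusted p of 0.196. Without replicate 1 of day 2 this average was -0.139, and over all arrays left out in turn it ran from -0.41 to -0.139.

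Fdps encodes farnesyl diphosphate synthase, whose product feeds sterols as well as protein prenylation. Its log2 intensities at day 2 were 11.62 and 12.21 with cyclosporin A, against 11.90 and 12.01 with ethanol. At day 4 they were 11.85 and 11.87 with cyclosporin A, against 11.51 and 12.31 with ethanol, so that the ethanol samples enclosed both cyclosporin A samples. At day 7 they were 11.83 and 12.01 with cyclosporin A, against 11.97 and 12.03 with ethanol. The groups overlapped on all 3 days, and the daily mean ratios lay between -0.0778 and -0.0381, each with an SE of 0.206.

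Fdft1 encodes squalene synthase, the first enzyme committed to sterols. At day 2 its log2 intensities were 11.08 and 11.46 with cyclosporin A, against 11.68 and 11.72 with ethanol. Both cyclosporin A samples were below both ethanol samples, with a mean ratio of -0.43 ± 0.16 (SE, n = 2 arrays), an interval of -0.81 to -0.0485 and an adjusted p of 0.495 in limma. At day 4 the values were 11.43 and 11.25 with cyclosporin A, against 11.16 and 11.44 with ethanol. At day 7 they were 11.68 and 11.26 with cyclosporin A, against 11.49 and 11.35 with ethanol. On these days the groups overlapped, and the mean ratios were 0.0429 and 0.0508.

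Sqle encodes squalene epoxidase, a rate-limiting enzyme of the sterol branch. At day 2 its log2 intensities were 12.07 and 12.67 with cyclosporin A, against 12.35 and 12.36 with ethanol. At day 4 they were 12.57 and 12.66 with cyclosporin A, against 12.09 and 12.55 with ethanol. Day 4 was the only day without overlap for Sqle, with both cyclosporin A samples higher, a mean ratio of 0.30 ± 0.21 (SE, n = 2 arrays) and an adjusted p of 0.557 in limma. At day 7 the values were 11.83 and 12.60 with cyclosporin A, against 12.35 and 12.44 with ethanol. The cyclosporin A samples of days 2 and 7 lay on either side of the ethanol samples, and the mean ratios were 0.0132 and -0.18.

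Lss encodes lanosterol synthase, which closes the sterol rings. At day 2 its log2 intensities were 9.03 and 9.60 with cyclosporin A, against 9.89 and 9.68 with ethanol, and both cyclosporin A samples were lower. At day 7 they were 9.51 and 9.09 with cyclosporin A, against 9.02 and 9.03 with ethanol, and both cyclosporin A samples were higher. The day 4 samples overlapped, at 9.11 and 8.93 with cyclosporin A and 8.81 and 9.04 with ethanol. The mean ratios were -0.47 ± 0.21 at day 2, 0.0952 ± 0.21 at day 4 and 0.28 ± 0.21 at day 7 (SE, n = 2 arrays each), with adjusted p-values of 0.551, 0.87 and 0.482 in limma. The ratio at day 7 minus that at day 2 was 0.75 (95% interval 0.0238 to 1.47), the largest day difference among the members, with an adjusted p of 0.808.

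Cyp51 encodes lanosterol demethylase, the first step from lanosterol towards cholesterol. Its log2 intensities were 9.55 and 10.10 with cyclosporin A at day 2, against 10.25 and 9.96 with ethanol. They were 9.83 and 9.67 with cyclosporin A at day 4, against 9.57 and 9.94 with ethanol, and 9.87 and 9.52 with cyclosporin A at day 7, against 9.51 and 9.56 with ethanol. The groups overlapped on all 3 days. The mean ratios were -0.28 ± 0.23, -0.00155 ± 0.23 and 0.17 ± 0.23 at days 2, 4 and 7 (SE, n = 2 arrays each).

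Srebf2 had the lowest adjusted p of the members at day 7 and on average. Its log2 intensities were 8.84 and 9.50 in the cyclosporin A samples of day 7, against 9.42 and 9.86 in the ethanol samples. Within each array of that day the cyclosporin A sample was lower, by log2 ratios of -0.59 and -0.36, although the intensities of the groups overlapped across arrays. The mean ratio was -0.47 ± 0.13 (SE, n = 2 arrays), a fold of 0.72 with an interval of 0.579 to 0.895, and its adjusted p in limma was 0.112. At day 4 the values were 9.42 and 9.77 with cyclosporin A, against 9.75 and 9.89 with ethanol, with ratios of -0.33 and -0.12. At day 2 they were 9.27 and 9.59 with cyclosporin A, against 9.48 and 9.52 with ethanol, with ratios of -0.21 and 0.0731. The ratio was below 0 on 5 of the 6 arrays, and its average was -0.26 ± 0.0761 (SE, n = 6 arrays), with an adjusted p of 0.0708. Over all alternatives this adjusted p ran between 0.0521 and 0.279. With median centring and no loess the average was 0.18, opposite in sign.

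**Figure D2:**
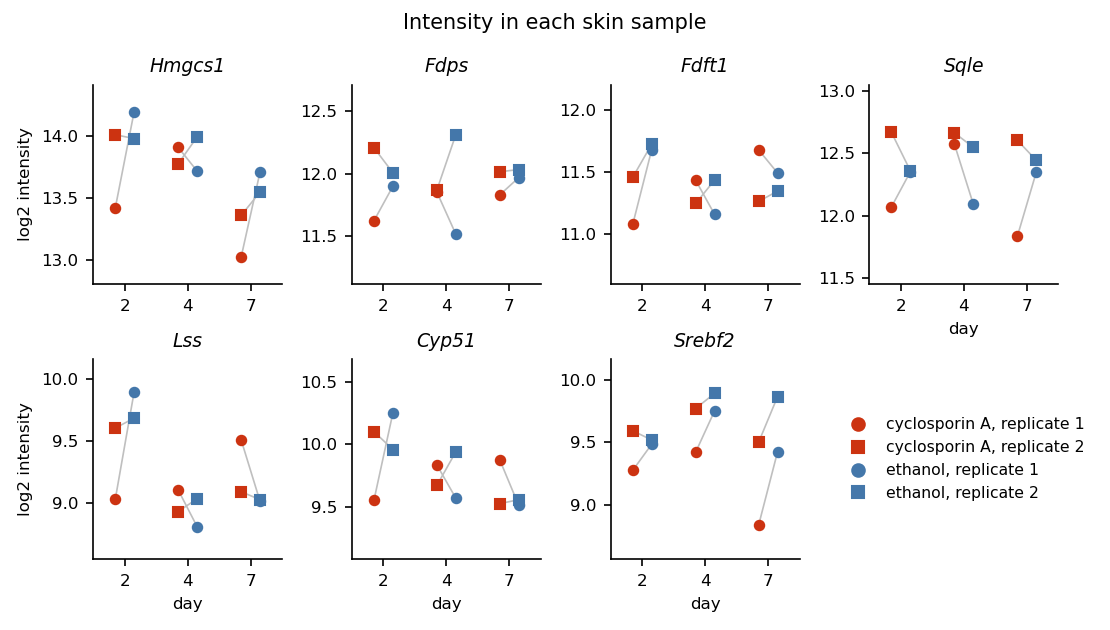
Log2 intensity (y axis) of each gene in each sample by day (x axis), after loess within arrays and Aquantile scaling between them. Red points are cyclosporin A samples and blue points ethanol samples, circles are replicate 1 and squares replicate 2, and grey lines join the samples of an array; panels share the height of the axis but not its position. The red and blue points of Hmgcs1 at day 7 do not overlap, and for Srebf2 both grey lines of day 7 slope up towards ethanol.

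Counted over the 7 genes and 3 days, the 2 cyclosporin A samples and the 2 ethanol samples overlapped in 16 of 21 cases and did not in 5. The 5 were Fdft1 and Lss at day 2, Sqle at day 4, and Hmgcs1 and Lss at day 7. Per day these were 2, 1 and 2 of 7 genes, against 42%, 50.4% and 39.2% of all genes at days 2, 4 and 7.

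The day differences of the ratio gave no call among the members. The counts were 0 of 7 for day 4 minus day 2 (0% of all genes), 0 of 7 for day 7 minus day 4 (0.181%) and 0 of 7 for day 7 minus day 2 (0.254%). At an unadjusted p under 0.05 the counts were 0, 0 and 1, the 1 being Lss, against 2.21%, 4.49% and 6.15% of all genes. Each channel was also fitted alone. In the cyclosporin A channel 0 of 7 members were called for day 4 minus day 2 (0% of all genes), day 7 minus day 4 (0.34%) and day 7 minus day 2 (0.916%). In the ethanol channel 0 of 7 were called for the same differences, against 0.00454%, 0.0227% and 0.0363% of all genes. For Lss, day 4 minus day 2 was -0.30 in the cyclosporin A channel (SE 0.24) and -0.86 in the ethanol channel (SE 0.15, adjusted p 0.42 in limma). Day 7 minus day 2 was -0.017 in the cyclosporin A channel (adjusted p 0.987) and -0.77 in the ethanol channel (adjusted p 0.235). For Hmgcs1 the cyclosporin A samples gave -0.65 for day 7 minus day 4 (adjusted p 0.342), and the ethanol samples gave -0.22.

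The replicates of a day differed from each other in the members' ratios. At day 2 the log2 ratio was lower on replicate 1 than on replicate 2 for 7 of 7 members, against 53.9% of all genes. The member median on these arrays was -0.60 on replicate 1 and 0.0731 on replicate 2. At day 4 it was higher on replicate 1 for 6 of 7 members, against 49% of all genes, with medians of 0.27 and -0.19. Srebf2 was the 1 member lower there, against 51% of all genes. At day 7 it was lower on replicate 1 for 4 of 7 members, against 43.5% of all genes, and higher for 3, against 56.5%. The median size of the difference between replicates was 0.588, 0.403 and 0.394 for the members at days 2, 4 and 7, and 0.22, 0.187 and 0.217 for all genes.

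For all 7 members the day 2 gap was larger in the cyclosporin A channel. In that channel replicate 1 was lower than replicate 2 each time, by log2 differences of -0.60 (Sqle) to -0.32 (Srebf2). In the ethanol channel the differences of the same pair were -0.11 (Fdps) to 0.29 (Cyp51). At day 4 the larger gap was in the ethanol channel for all members but Srebf2. The cyclosporin A differences of the 6 enzymes ran from -0.0908 (Sqle) to 0.19 (Fdft1), and the ethanol differences from -0.80 (Fdps) to -0.22 (Lss).

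Across the 6 arrays the log2 ratios of the enzyme genes were positively correlated, to widely differing degrees. The 15 pairs of the 6 enzymes all had a Pearson r above 0, from 0.13 (Sqle and Lss) to 0.96 (Hmgcs1 and Sqle), with a median of 0.49. The pairs among Fdft1, Lss and Cyp51 had r of 0.88 to 0.95. Fdps had 0.69 with Hmgcs1, 0.64 with Cyp51 and 0.61 with Sqle. Srebf2 ran with Hmgcs1 (0.41), Sqle (0.52) and Fdps (0.0475), and against Fdft1 (-0.60), Lss (-0.52) and Cyp51 (-0.36). These are descriptions over 6 arrays whose ratios share a normalization, and the pairs named were chosen after the values had been seen. On replicate 1 of day 7 the log2 ratios were -0.68 for Hmgcs1 and -0.51 for Sqle, and 0.49 for Lss and 0.36 for Cyp51. On replicate 2 of that day they were -0.19 for Hmgcs1 and 0.16 for Sqle, and 0.063 for Lss and -0.0315 for Cyp51.

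Other enzymes of the pathway were set beside the members by a list chosen with these genes known. Of 16 other early and late enzymes, 12 were lower on replicate 1 than on replicate 2 at day 2, with a median difference of -0.33. Msmo1, which encodes a sterol methyl oxidase, had ratios of -0.83 and -0.0778 on these arrays. Dhcr7, which encodes the last reductase of one branch, had -0.49 and 0.58. Both were named after their values had been seen. The 4 enzymes higher on replicate 1 included Mvk (-0.28 and -0.43), Ggps1 (0.35 and 0.23) and Lbr (0.14 and 0.12), described below. At day 4 the count was 6 lower and 10 higher on replicate 1, and at day 7 it was 4 lower and 12 higher.

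Marker genes of other cells of the skin moved on the same arrays of day 2. The 6 sebocyte markers measured, of 8 listed, had a median ratio of -0.58 on replicate 1 and 0.30 on replicate 2, with the brightest, Krt79 and Cidea, at -0.55 and -0.78 on replicate 1 and 0.54 and 0.43 on replicate 2. The 6 basal keratinocyte markers had medians of -0.38 and 0.47, and the 7 of 8 measured markers of epidermal differentiation -0.26 and 0.53. The 6 fibroblast markers ran the other way, at 0.78 and -0.0687, as did the 10 adipocyte markers, at 0.39 and -0.58. At day 4 the member medians were 0.27 and -0.19 on replicates 1 and 2. Those of the sebocyte markers were 0.012 and 0.23, of basal keratinocyte markers -0.0465 and 0.30, and of differentiation markers 0.27 and 0.33. Fibroblast markers had -0.33 and -0.0808 there, and adipocyte markers 0.32 and -0.42. Summed raw intensities of the sebocyte markers were 96881 to 175298 in the cyclosporin A samples and 58515 to 81399 in the ethanol samples, read in different dyes. Those of the basal keratinocyte markers were 359496 to 652538 with cyclosporin A and 147805 to 283667 with ethanol. Those of epidermal differentiation were 363100 to 751038 with cyclosporin A and 181543 to 358790 with ethanol, those of fibroblasts 491680 to 887313 and 220851 to 386928, and those of adipocytes 374363 to 654750 and 197889 to 343120, in the same order. In each sample at least 5 of the 6 sebocyte, 5 of the 6 basal, 6 of the 7 differentiation, 6 of the 6 fibroblast and 9 of the 10 adipocyte markers were well above background. Their part in the day 2 and day 4 gaps of the members was not tested.

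At day 7 the markers of hair matrix and root sheath had a median ratio of 4.83, with 8 of 8 called higher, and those of the cell cycle 1.53, with 6 of 7 called. The summed hair markers were 1274 to 250688 raw units in the cyclosporin A samples of all days and 1711 to 4497 in the ethanol samples, where 1 to 6 of the 8 were well above background. The summed cell cycle markers were 6474 to 31151 with cyclosporin A and 4587 to 6516 with ethanol. The members' median on the same arrays was -0.138 on replicate 1 and -0.0315 on replicate 2. The 6 basal keratinocyte markers had a median of -0.27 at day 7, and the 7 epidermal differentiation markers -0.45, with 1 called lower. The 6 sebocyte markers had a median of -0.19, also with 1 called lower, but they ran from -1.07 to 0.77, with 3 above 0. The part of these cell types in the ratios of Hmgcs1 and Srebf2 was not tested.

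Several genes had more than 1 probe, and these did not always give the same ratio. The 2 probes of Lss ran together (r = 0.96 over 6 arrays), with a mean distance of 0.125. Of the 3 probes of Cyp51, A_52_P164161 ran with the representing probe (r = 0.97) but 0.39 higher on average, at -0.47, 0.47, 0.63, 0.31, 0.79 and 0.41 in the order day 2, 4 and 7 and replicate 1 before 2. Its average ratio was 0.36 ± 0.13 (SE, n = 6 arrays, adjusted p 0.117 in limma), against -0.0377 ± 0.13 for the representing probe. The third probe, A_51_P485791, averaged -0.073 ± 0.12. The sign of the average ratio of Cyp51 thus depended on the probe.

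For Hmgcs1 the second probe, A_52_P388072, was much dimmer and gave -2.02 and 0.19 at day 2, 0.32 and -1.03 at day 4, and 0.17 and -0.14 at day 7. Its low ratio on replicate 1 of day 2 went with an ethanol spot of 1147 raw intensity units, against 262 to 599 on the other arrays. The cyclosporin A signal of that array, 380, was inside the range of the others, 213.5 to 385. At day 7 this probe averaged 0.0124 ± 0.51, against -0.43 ± 0.22 for the representing probe.

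For Fdft1 the dim probe had ratios above 0 on all 6 arrays, from 0.0689 to 0.55. When each probe was fitted separately, it was the 1 member probe of 13 called on average (adjusted p 0.0393 in limma), against 12.9% of all probes. The probe passed the filter on dim spots through the cyclosporin A channel alone, so nothing is read from that call. The ethanol signal was not well above background on any array. The mean log2 ratio of this probe, 0.28 (1.21-fold), is therefore not read as a change or as a bound. Its raw signals were 100 to 116 with cyclosporin A and 126.5 to 208 with ethanol. The log2 ratio compares the dyes after loess and scaling, without a dye swap. The brighter probe of Fdft1 averaged -0.11 ± 0.0923. The dim probe of Srebf2 also passed through the cyclosporin A channel alone, and its ratios are not set against those of the brighter probe.

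**Figure D3:**
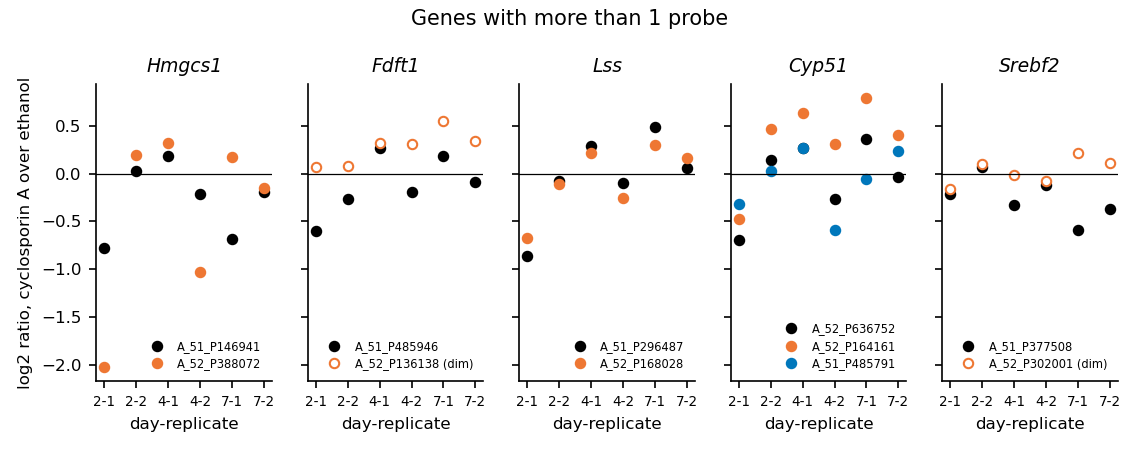
Log2 ratio of cyclosporin A over ethanol (y axis) of each probe of the 5 genes with more than 1 probe, on the 6 arrays given as day and replicate (x axis). Open points are probes not well above background in the ethanol channel on any array. The 2 probes of Lss overlie each other, while the Hmgcs1 probes are furthest apart on replicate 1 of day 2, at -0.77 and -2.02.

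Around the enzymes, 49 genes of 6 further lists were read, of which 46 were tested. They were other early enzymes (7 tested), other late enzymes (9), SREBP regulation (5), uptake and sterol transport (7), efflux and the LXR receptors (8), and fatty acid synthesis (10). At day 2 and at day 4, 0 of 46 were called, with 4 and 6 at an unadjusted p under 0.05, against 9.58% and 14.7% of all genes. At day 7, 4 were called higher and 0 lower, against 2.37% and 0.658% of all genes. On average 5 were called higher and 3 lower, against 9.57% and 3.31% of all genes.

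The genes called at day 7 were 1 sterol reductase and 3 genes of fatty acid synthesis. The 10 fatty acid synthesis genes tested ran from -1.05 to 1.24 at that day, with 8 above 0. Lbr, which encodes the lamin B receptor, a nuclear membrane protein with sterol reductase activity, had ratios of 0.86 and 0.81, with a mean of 0.84 ± 0.11 (SE, n = 2 arrays) and an adjusted p of 0.0174 in limma. Fasn, which encodes fatty acid synthase, had 1.00 and 1.48, with a mean of 1.24 ± 0.16 and an adjusted p of 0.0181. Scd2, which encodes a stearoyl-CoA desaturase, had 1.00 and 1.44, with a mean of 1.22 ± 0.16 and an adjusted p of 0.0181. Fads2, which encodes a fatty acid desaturase, had 0.88 and 0.95, with a mean of 0.92 ± 0.12 and an adjusted p of 0.0173. These 4 were above 0 on both arrays of the day, and the 7 members on the same arrays lay between -0.68 and 0.49. Whether the lists differ was not tested. Without replicate 1 of day 4 or without replicate 2 of day 4, only Fasn and Scd2 of the 4 were called. Without replicate 1 of day 7 or without replicate 2 of day 7, 0 of the 4 were called, at adjusted p-values of 0.0623 to 0.129. With the scanner's processed signals or the deposited log ratios only Fads2 of the 4 was called.

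On average over the days, Ggps1, which encodes geranylgeranyl diphosphate synthase, was higher at 0.29 ± 0.0648 (SE, n = 6 arrays, adjusted p 0.0347 in limma), with ratios from 0.19 to 0.37. Mvk, which encodes mevalonate kinase, was lower at -0.34 ± 0.0751 (adjusted p 0.0349), with ratios below 0 on all 6 arrays. Both lie in the early pathway, next to the steps of Hmgcs1 and Fdps. Cyp27a1, which encodes a sterol hydroxylase, was lower at -0.49 ± 0.0994 (adjusted p 0.0288). Lbr, Fasn, Scd2 and Fads2 were higher by 0.44, 0.69, 0.58 and 0.36. Of these 8 calls, 0 were made without replicate 1 or without replicate 2 of day 4, 1 without replicate 2 of day 7 (Fasn), 3 without replicate 1 of day 2, and 4 without replicate 2 of day 2 or replicate 1 of day 7. With each array centred on its median and no loess, Mvk turned to 0.11 and was not called, and Cyp27a1 was not called at -0.18. Of the 8, 2 were called with processed signals and 3 with the deposited ratios, Cyp27a1 under both settings.

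Lists with fewer than 2 called genes are shown by their lowest average p-values, here of genes that were not called. Tm7sf2, a sterol reductase, averaged 0.21 ± 0.11 (adjusted p 0.219 in limma). Insig2, which holds SREBPs in the endoplasmic reticulum, averaged 0.34 ± 0.0994 (adjusted p 0.0683), and Scap, their escort protein, -0.27 ± 0.12 (adjusted p 0.162). Npc1, a lysosomal cholesterol transporter, averaged -0.18 ± 0.0728 (adjusted p 0.148), and Abcg1, a sterol exporter, -0.32 ± 0.0865 (adjusted p 0.0581). At day 7 the median ratio was 0.0938 for the other early enzymes, 0.17 for the late ones, 0.0784 for SREBP regulation, -0.10 for uptake and transport, -0.22 for efflux and 0.38 for fatty acid synthesis, beside 0.0285 for all genes.

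**Figure D4:**
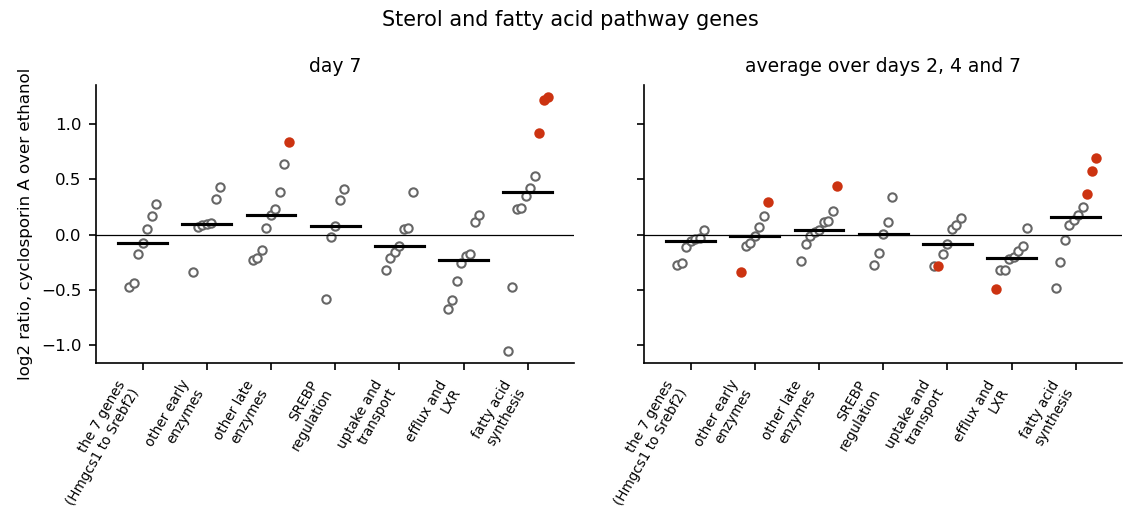
Log2 ratio of cyclosporin A over ethanol (y axis) of the genes of each list (x axis) at day 7 and on average over the days. Filled red points are genes with an adjusted p under 0.05, open points are other genes, and black bars are list medians. The 7 member genes hold no red point, and fatty acid synthesis holds 3 at day 7, between 0.92 and 1.24.

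Among 4950 other named genes whose ratios varied at least as much over the arrays as the member mean (SD 0.251), the 5 that correlated most with it were Adtrp (Pearson r 0.99), Galnt15 (0.99), Egln3 (0.96), Fbln1 (0.96) and Klk6 (0.95), over 6 arrays. The member mean was -0.53 and 0.0584 at day 2, 0.22 and -0.17 at day 4, and -0.13 and -0.0658 at day 7. Adtrp had -0.81 and -0.14, 0.18 and -0.35, and -0.32 and -0.20 on the same arrays. Egln3 had -0.66 and 0.32, 0.72 and 0.0457, and 0.11 and -0.0879. The genes were chosen for this likeness, which is a description of the 6 arrays.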

How the data were processed

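6 dual-colour Agilent arrays were read, each with 1 cyclosporin A and 1 ethanol sample. The deposited files hold median spot intensities and processed signals of both channels, and the submitters' processing notes name Agilent Feature Extraction 9.1 as their source. Processed signals are background-subtracted and dye-normalized, per the file headers. Log10 ratios of Cy5 over Cy3 were also deposited. They equal the scanner files' ratios, have a median of 0 on each array, and take their direction from the dyes in the labels. Per array 1639 control spots and 15 to 126 outlier spots were left out, and 0 were saturated. Intensities were corrected with normexp (offset 50) and loess in limma 3.58.1 (R 4.3.3), and log2 ratios were averaged per probe. A probe was kept if 1 of its channels was well above background on the 2 arrays of any day (27945 of 41174). Probes were named through a RefSeq list for GRCm38.p6, 22951 by accession and 67 by synonym, leaving 18156 unnamed. A mean per day was fitted, with 3 residual and 3.74 prior degrees of freedom, and the scripts were tested on simulated data. Single channels were scaled with Aquantile. Median raw intensities per array were 134.5 to 187 with cyclosporin A and 203 to 277 with ethanol, and the number of arrays limits the precision. Alternatives covered normalization, filter, probe choice, replicate number and left-out arrays. Members, lists and rules were chosen with earlier results of these data known. Named genes were all members, up to 4 called genes per pathway list (with fewer than 2 called, also the 2 lowest average p), the 2 brightest sebocyte markers, and the 5 genes most like the member mean. Msmo1 and Dhcr7 were added after their values had been seen. Some genes counted in the lists are not reported here by name.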

Additional observations from a re-analysis of the deposited data

How the results depend on the processing

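Member counts stayed at 0 of 7 at days 2, 4 and 7 and on average under all alternatives run except median centring without loess. That setting gave 1 call at day 2 and 1 at day 4 (Sqle both times, 0.80 and 1.00) and 6 on average, with member medians of 0.48, 0.59, 0.51 and 0.51. Over all genes it gave 8615, 5516, 4907 and 13309 calls at days 2, 4 and 7 and on average. Ratios that changed sign there were, at day 2, Hmgcs1 0.54, Fdps 0.72, Fdft1 0.30, Lss 0.0869, Cyp51 0.33 and Srebf2 0.48. At day 4 they were Hmgcs1 0.83, Fdps 0.59, Cyp51 0.44 and Srebf2 0.21, and at day 7 Hmgcs1 0.28, Sqle 0.44 and Fdps 0.51. On average they were Hmgcs1 0.55, Fdps 0.61, Fdft1 0.51, Lss 0.37, Cyp51 0.43, Srebf2 0.18 and Mvk 0.11. With processed signals and with the deposited ratios, the day 7 member median was -0.00100, and the signs of Hmgcs1 (0.0399) and Cyp51 (0.00407) at day 4 and of Sqle (0.0831) and Fdft1 (-0.00100) at day 7 changed. Cyp51 at day 4 was 0.0145 without background correction and 0.0219 after scaling between arrays, which also gave -0.00241 for Sqle at day 2 and 0.00449 for Hmgcs1 at day 4. The mean of a gene's probes gave 0.10 for Cyp51 at day 4, and 0.0832 for Fdft1 and 0.0818 for Cyp51 on average. The cause was not tested. Leaving out 1 array gave, at day 2, Hmgcs1 -0.77 to 0.0305, Sqle -0.28 to 0.31, Fdps -0.28 to 0.20, Cyp51 -0.70 to 0.14 and Srebf2 -0.21 to 0.0731. At day 4 it gave Hmgcs1 -0.21 to 0.19, Fdps -0.44 to 0.34, Fdft1 -0.19 to 0.27, Lss -0.10 to 0.29 and Cyp51 -0.27 to 0.27. At day 7 it gave Sqle -0.51 to 0.16, Fdft1 -0.0829 to 0.18 and Cyp51 -0.0315 to 0.36. On average it gave Sqle -0.0671 to 0.16, Fdps -0.19 to 0.0732, Lss -0.16 to 0.0973 and Cyp51 -0.18 to 0.10. A lone array of a day was assumed to vary like the other days.

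Counts over all genes moved more. Those at day 7 were 668 in the reported fit, 137 to 669 with an array left out, 206 with processed signals, 278 with the deposited ratios, 308 after scaling, 367 for probes above background throughout and 4907 with median centring. Higher against lower calls at day 7 were 523 and 145 as reported, 254 and 24 with the deposited ratios, and 4346 and 561 with median centring. On average the count was 2840, with 27 to 1484 with an array left out, 1077 above background throughout, 1171 with processed signals, 1632 with the deposited ratios, 5210 without a filter and 13309 with median centring. Same-numbered replicates of different days did not deviate together (r 0.00491, -0.281 and -0.0224 over genes). With the replicate number as a block, 0 of 7 members were called at each day and on average, and all genes gave 0, 0, 322 and 1127 calls. Under the block 4 of the 4 other pathway genes were called at day 7, and 4 of the 8 on average. With median centring all genes gave 8615 calls at day 2 and 5516 at day 4, against 0 and 1 as reported. Day differences of 7 minus 4 and 7 minus 2 were called for 40 and 56 genes, and for 16 to 69 and 27 to 82 with an array left out. With 2 arrays per day, dim signal limits the second probes of Fdft1 and Srebf2.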
